A study of Mus musculus with 8 samples.

Results

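Gad1, Gad2, Slc32a1, Dlx1, Dlx2, Dlx5, Dlx6, Tal1 and Sst were followed through ribosome-bound RNA of embryonic mouse dopamine and serotonin neurons. The 9 genes were chosen by function: synthesis of the transmitter GABA, its loading into vesicles, the transcription factors of GABA neuron lineages, and a peptide that many GABA neurons release. All 9 were found by gene identifier among the 38924 genes of each count table. GABA is the main inhibitory transmitter of the brain. It is made from glutamate by the 2 glutamate decarboxylases that Gad1 and Gad2 encode, and it is packed into synaptic vesicles by the transporter that Slc32a1 encodes. In mice, Dlx homeodomain factors direct the GABA lineages of the forebrain, whereas Tal1, a basic helix-loop-helix factor, acts with GATA factors in GABA lineages of the midbrain and brainstem. Some midbrain dopamine neurons are known to release GABA as well as dopamine, and GABA neurons lie among them in the ventral midbrain.

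The RNA came from bacTRAP mice, in which a tagged ribosomal protein is made in the cells that use a chosen promoter, so that RNA on tagged ribosomes can be pulled out of mixed tissue. There were 8 libraries: 2 labelled datL, 2 labelled datM, 1 labelled Lateral, 1 labelled Medial, all from midbrain dopamine neurons, and 2 from serotonin neurons. The design text names a dopamine transporter (Slc6a3) line and a serotonin transporter (Slc6a4) line, whereas the description of every library, the serotonin ones included, names the Slc6a3 line JD1640, so groups follow the titles. Embryos were taken on embryonic day 15, and the labels add, for all libraries alike, that day 18 midbrain was day 15 tissue kept 3 days in vitro. The file headers of Lateral and Medial carry the mark E18, and no label spells out L and M. It is not stated that replicate libraries came from different animals. The p-values of datL against datM reflect spread between replicate libraries, part or all of which may be technical. Where all dopamine libraries were fitted as a single group, the spread also holds differences between datL, datM, Lateral and Medial, and between runs. In the test of Lateral with Medial against serotonin, the spread also holds the difference between Lateral and Medial. The datL and datM libraries came from an October run, and Lateral, Medial and serotonin from lane 8 of another run, per the file headers.

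Total counts ran from 22417739 to 33216710 per library. The libraries matched their labels in the transporter genes: Slc6a3 stood between 31.9 and 740 CPM (counts scaled to a library total of 1000000) in the 6 dopamine libraries, against 0.679 and 0.171 CPM in serotonin libraries, and Slc6a4 between 0 and 5.27 CPM, against 1196 and 1075 CPM. The October libraries were patchy from one replicate to the other. Of 10482 genes with at least 50 counts in one datL library, 1469 (14.0%) had 0 counts in the other. The share was 13.2% for the datM pair and 2.79% for the serotonin pair. Among the 9 genes, Slc32a1, Dlx2 and Dlx6 were such genes in the datL pair, and none was in the datM or serotonin pair. A zero in 1 October library is read here against that background.

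Stretches of 3 promoters are shown because they hold textbook motifs that could be looked for in these genes. RefSeq promoter windows of 300 bases (250 before to 50 after the start, build GRCm38.p6) were matched for 7 of the 9 genes, with 8 windows in all. Dlx5 and Dlx6 had none. Capitals mark the motif, and each line runs 5′ to 3′ on the gene's strand.
Sst, cAMP response element TGACGTCA at position -48, chr16:23890877-23890902, minus strand: cctccttggcTGACGTCAgagagaga
Gad1, TTTATA (the TATA box letters, read on the other strand) at position -141, chr2:70561978-70562003, plus strand: gtgagctggaTTTATAatcgccctac
Tal1, TTATCT (the GATA motif AGATAA on the other strand) at position -205, chr4:115056211-115056236, plus strand: atagagtcttTTATCTttgagcaatt
Of 32851 promoter windows of the same length, searched on both strands, 1.79% held TGACGTCA, 13.6% held TATAAA and 11.2% held AGATAA. The homeodomain letters TAATTA (5.29% of windows) and TAATTG (8.0%) and the E-box CAGCTG (16.3%) were in 0 of the 8 windows of these genes. TGACGTCA reads the same on both strands. The Gad1 stretch lies inside the gene span of the count tables, whose annotation starts upstream of the RefSeq start used. Such matches describe letters and not binding.

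Gad2 was present in all 8 libraries and was the gene of the 9 that lay higher in every dopamine library than in both serotonin libraries. Gad1 was abundant in 6 libraries and nearly missing from both datM libraries. The 4 Dlx genes were read in datL and Lateral libraries and had at most 1 count in each datM, Medial and serotonin library. None of these differences passed the adjusted threshold of edgeR's quasi-likelihood test. In bulk samples, fewer cells of a type and less RNA per cell cannot be told apart.

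**Figure D1:**
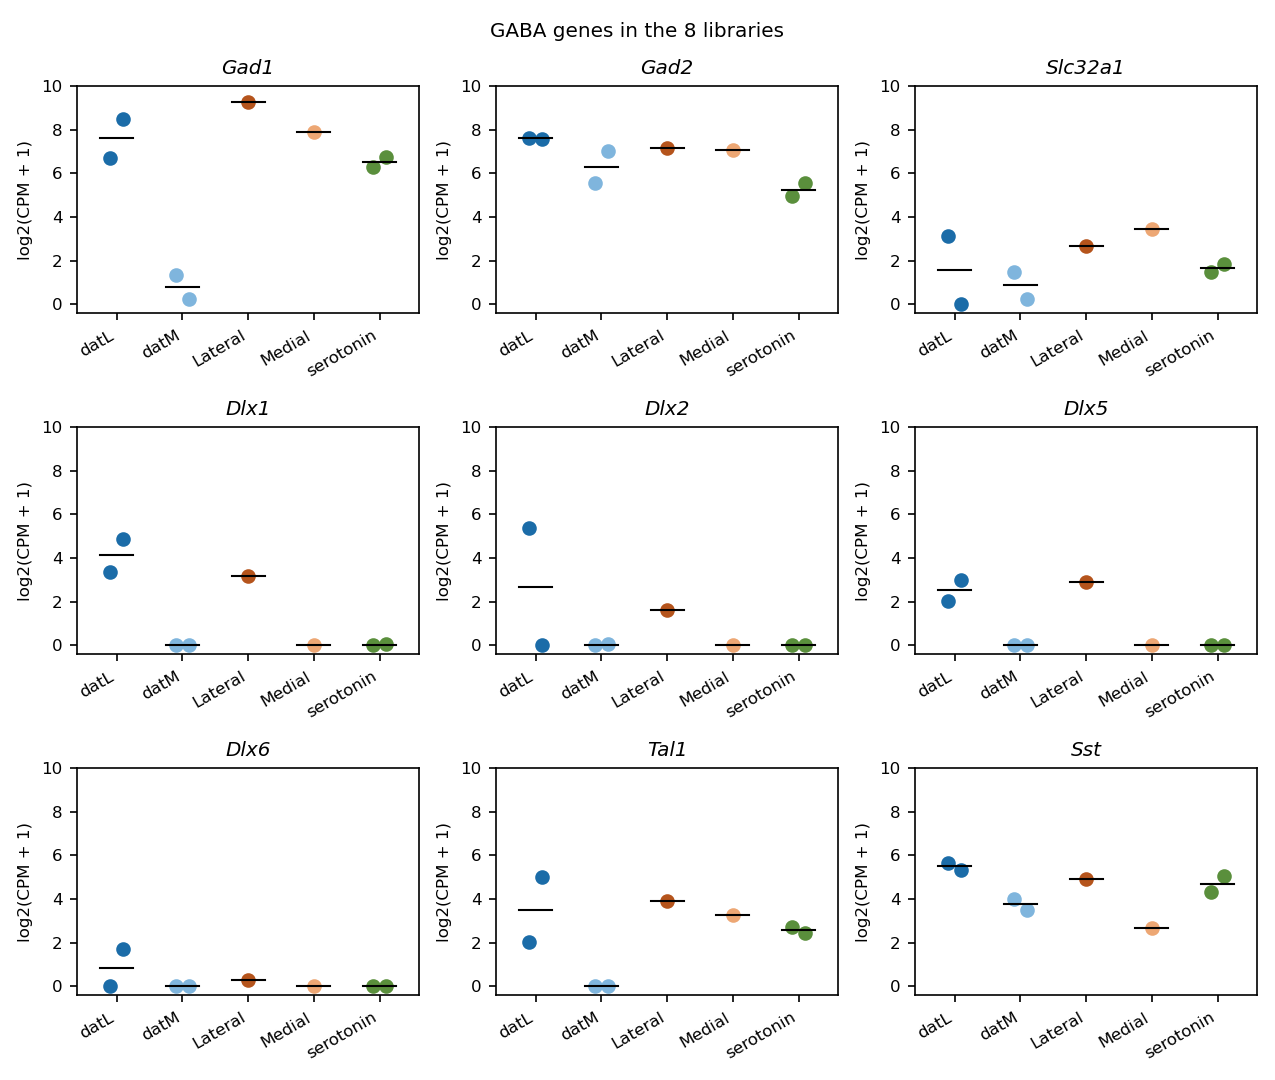
Level of each of the 9 genes, as log2(CPM + 1), in datL (n = 2), datM (n = 2), Lateral (n = 1), Medial (n = 1) and serotonin (n = 2) libraries. Points are libraries and bars the mean of the plotted values. The Dlx genes lie at or near 0 in datM, Medial and serotonin, and Gad1 is near 0 in datM.

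Gad1 (ENSMUSG00000070880.4, chr2:70553072-70602014, plus strand, mm10) encodes the decarboxylase that supplies most GABA of the brain. It had 104 and 358 CPM in datL libraries, against 1.54 and 0.208 CPM in datM libraries. Lateral had 624 CPM and Medial 240 CPM, against 77.0 and 108 CPM in the serotonin libraries. The 2 datM libraries thus held 42 and 5 Gad1 counts, against 2354 and 9394 in datL and 2270 and 3152 in serotonin. In order, Lateral was highest, Medial lay between the datL values, the lower datL value lay between the serotonin values, and datM was lowest, apart from all others. Pooled over libraries, the datL level was 262 times the datM level (95% interval 197 to 357, counting error only). The edgeR log2 fold change of datL over datM was 8.09 (SE 1.28, unadjusted p = 0.000353 in edgeR, adjusted p = 0.597). DESeq2 called it (adjusted p = 1.56e-11) and limma-voom did not (adjusted p = 0.206). In edgeR it passed only in the shared fits that left 1 serotonin library, a group outside this contrast. Over all fits without 1 library the log2 fold change ran from 6.92 to 10.2. In the edgeR fit of the datL and datM libraries alone, Gad1 did not pass (adjusted p = 0.99987), nor did any of 10713 genes.

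Gad1 was also compared with other abundant genes, by rules chosen after its values were seen. Of 1841 genes with at least 50 CPM in each of the other 6 libraries, Gad1 was the one (0.0543%) with under 2 CPM in both datM libraries. That it stood alone depends on the limit of 50 CPM. Mpp3, at 1.25 and 0.166 CPM in datM, missed the rule only through serotonin replicate 2, at 48.6 CPM. Of 2495 genes with at least 50 CPM in all 4 lane 8 libraries, 0.762% were under 2 CPM in datM replicate 1 and 1.00% in datM replicate 2, and the shares were 1.16% and 0.240% in the 2 datL libraries.

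Against serotonin, the 6 dopamine libraries had a Gad1 log2 fold change of 1.36 (SE 1.79, adjusted p of 1.00 in edgeR), with datM below and 3 of the other 4 libraries above both serotonin libraries. The sign turned with limma-voom (-0.98) and with 5 groups in the model (-0.27). Within lane 8 the log2 fold change of Lateral and Medial over serotonin was 2.17 (SE 0.54, adjusted p of 0.281 in edgeR), and DESeq2 called it (adjusted p = 0.00239). Lateral had 2.61 times the Medial level (95% interval 2.53 to 2.68, counting error only, 1 library each). That ratio was 2.93 with TMM-adjusted library sizes.

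Gad2 (ENSMUSG00000026787.3, chr2:22622205-22693874, plus strand) encodes the decarboxylase found mainly at nerve terminals. It had 196 and 193 CPM in datL libraries, against 46.9 and 130 CPM in datM libraries. Lateral had 141 CPM and Medial 134 CPM, against 30.1 and 45.9 CPM in the serotonin libraries. Every dopamine value exceeded both serotonin values, although the lowest, datM replicate 1, differed from serotonin replicate 2 by less than counting error (95% intervals 44.3 to 49.5 and 43.5 to 48.4 CPM). The dopamine mean was 140 ± 54.3 CPM (SD, n = 6), against 38.0 ± 11.2 CPM (SD, n = 2) in serotonin. The log2 fold change was 2.03 (SE 0.65, unadjusted p = 0.00919 in edgeR, adjusted p = 0.619), and DESeq2 gave an adjusted p of 0.0642. It stayed positive under all 16 settings tried, between 1.70 and 2.29. Within lane 8 it was 1.78 (SE 0.37, adjusted p of 0.273 in edgeR), which DESeq2 called (adjusted p = 0.00248). Of 15927 genes, 2.74% lay higher in all 6 dopamine libraries than in both serotonin libraries, and of the 9 genes this held for Gad2 alone; 8.35% lay lower in all 6, and none of the 9 did.

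Between datL and datM, Gad2 averaged 194 ± 2.57 CPM and 88.5 ± 58.9 CPM (SD, n = 2 each), and the datM values differed from each other more than the upper one differed from datL. The log2 fold change was 1.22 (SE 0.71, adjusted p of 0.607 in edgeR). Lateral and Medial differed little, by a ratio of 1.05 (95% interval 1.00 to 1.10), or 1.18 with TMM-adjusted sizes.

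Both decarboxylases compared per kilobase of exon showed where the datM libraries stood apart. The ratio of Gad2 to Gad1, in CPM per kilobase, was 2.46 and 0.699 in datL libraries, against 39.5 and 814 in datM libraries. It was 0.293 in Lateral and 0.726 in Medial, against 0.508 and 0.552 in the serotonin libraries. Outside datM, Gad1 exceeded Gad2 in 5 of 6 libraries, datL replicate 1 being the exception. In datM Gad2 was present at 7.98 and 22.2 CPM per kilobase, against which Gad1 stood at 0.202 and 0.0272 CPM per kilobase.

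**Figure D2:**
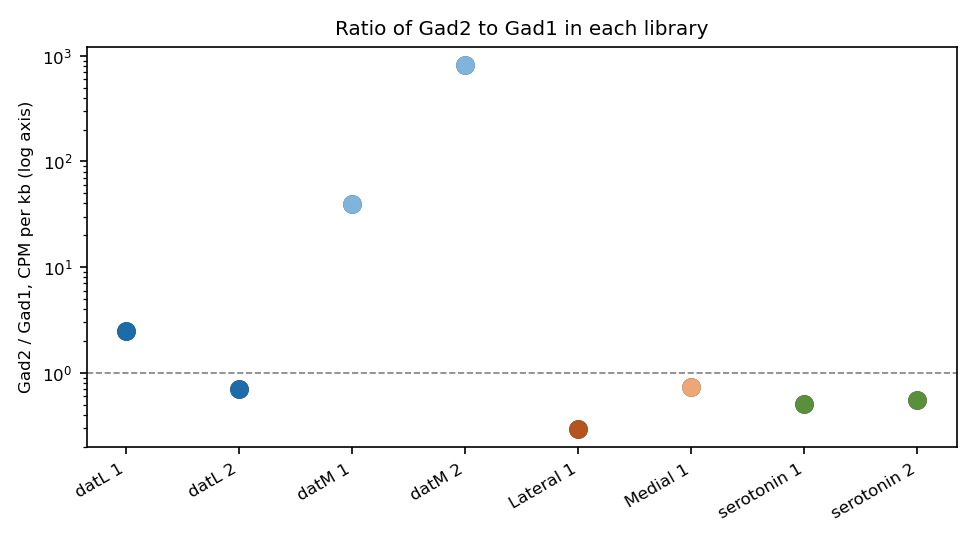
Ratio of Gad2 to Gad1 in each library, in CPM per kilobase of exon, on a log axis; the dashed line marks equal levels. The 2 datM libraries stand at 39.5 and 814, and the other 6 between 0.293 and 2.46.

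Slc32a1 (ENSMUSG00000037771.11, chr2:158610767-158615748, plus strand) encodes the vesicular GABA transporter, without which GABA made in a neuron is not loaded into vesicles by this route. It was scarce everywhere. It had 7.80 and 0 CPM in datL libraries, against 1.80 and 0.208 CPM in datM libraries. Lateral had 5.33 CPM and Medial 9.86 CPM, against 1.83 and 2.64 CPM in the serotonin libraries. The datL replicates, with 177 and 0 counts, lay on both sides of datM, and the zero allows a level of up to 0.114 CPM at that library's depth. Neither comparison passed in edgeR. The log2 fold change was 0.98 (SE 2.51, adjusted p of 1.00 in edgeR) for dopamine over serotonin and 2.05 (SE 3.06, adjusted p of 0.984 in edgeR) for datL over datM, and both turned negative with limma-voom (-0.72 and -0.49). Without datL replicate 1, the fold change of datL over datM was -7.85 on the log2 scale. Within lane 8 both dopamine libraries lay above both serotonin libraries (log2 fold change 1.66 with an SE of 1.37, adjusted p of 0.675 in edgeR), and Lateral had 0.541 times the Medial level (95% interval 0.441 to 0.662). Per kilobase, Slc32a1 was between 0.0233 and 0.112 of Gad1 in lane 8 libraries. An antisense gene, Gm14205, overlaps 24.9% of its exon bases; it was listed at 0 counts in all 8 libraries, though without strand shared reads cannot be assigned.

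Dlx1 and Dlx2 lie side by side on chromosome 2, and Dlx5 and Dlx6 on chromosome 6, each pair on opposite strands. In mouse forebrain the 4 factors act in sequence and in part redundantly as GABA precursors mature, Dlx1 and Dlx2 first. Dlx1 (ENSMUSG00000041911.3, chr2:71528113-71533981) had 212 and 745 counts in datL, against 0 and 0 in datM. Lateral had 270 counts and Medial 0, against 0 and 1 in serotonin libraries. Dlx5 (ENSMUSG00000029755.9, chr6:6877805-6882085) had 71 and 186 counts in datL and 214 in Lateral, and 0 in both datM libraries, in Medial and in both serotonin libraries. These 2 genes were read in all 3 libraries labelled datL or Lateral and separated them fully from the other 5.

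Dlx2 (ENSMUSG00000023391.7, chr2:71543409-71546754) had 922 and 0 counts in datL and 68 in Lateral. In datM it had 0 and 1 counts, and in Medial and serotonin none. Dlx6 (ENSMUSG00000029754.7, chr6:6863334-6868568) was the weakest, with 0 and 61 counts in datL, 8 in Lateral and 0 in the other 5 libraries. The datL replicates therefore split the genes of each pair: replicate 1 held Dlx2 and lacked Dlx6, and replicate 2 held Dlx6 and lacked Dlx2. Lateral was the library with counts for all 4.

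In CPM, Dlx1 stood at 9.34 and 28.4 in datL and 8.13 in Lateral, and Dlx5 at 3.13 and 7.10 in datL and 6.44 in Lateral. Summed over the 4 genes, the level was 53.1 and 37.8 CPM in datL, against 0 and 0.0416 CPM in datM. It was 16.9 CPM in Lateral, against 0 CPM in Medial, where 0 counts allow up to 0.134 CPM for each gene. The serotonin libraries had 0 and 0.0343 CPM. Per kilobase, Dlx5 stood at 0.162 and 0.106 of Gad1 in datL and 0.0554 in Lateral, and Dlx1 at 0.127 and 0.112 in datL and 0.0184 in Lateral.

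With a floor of 3 counts over the 2 datM libraries, the pooled datL level was at least 335-fold higher for Dlx1, at least 89.8-fold higher for Dlx5 and at least 21.3-fold higher for Dlx6. Without datL replicate 2 the Dlx1 bound was 160 and the Dlx5 bound 53.5, and Dlx6 had no fold; without datL replicate 1 they were 486, 121 and 39.8. The bounds without a datM library were 157 and 178 for Dlx1, 42.1 and 47.7 for Dlx5, and 9.99 and 11.3 for Dlx6. For Dlx2 the pooled ratio of datL to datM was 967 (95% interval 173 to 38231, counting error only); it rests wholly on datL replicate 1, since the other datL library had 0 counts. By the same floor in Medial, Lateral stood 60.7-fold above it for Dlx1, 48.1-fold for Dlx5, 15.3-fold for Dlx2 and 1.80-fold for Dlx6. The lower ends of the exact 95% intervals, which hold the error of both counts, were 49.1, 38.8, 12.1 and 1.15. Between dopamine and serotonin the bounds were at least 124-fold for Dlx2, 59.1-fold for Dlx5 and 8.65-fold for Dlx6, and they came down to 10.1 for Dlx2 without datL replicate 1 and to 1.21 for Dlx6 without datL replicate 2. Without a serotonin library they were 61.8 or 62.5 for Dlx2, 29.4 or 29.7 for Dlx5, and 4.30 or 4.35 for Dlx6. Dlx1, with 1 serotonin count, had a pooled ratio of 462 (95% interval 82.7 to 18248), and was at least 77.3-fold higher without serotonin replicate 2, which held that count. The floor bounds allow for counting error in the lower group only and take the higher group's count as it stands. An exact lower limit would lie below them, and the 1.21 for Dlx6 rests on 8 counts.

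In edgeR the unadjusted p of datL against datM was 0.0180 for Dlx1, 0.0462 for Dlx5, 0.0857 for Dlx2 and 0.114 for Dlx6, and the adjusted p was 0.597 or 0.598 for all 4. DESeq2 called Dlx1 (adjusted p = 0.000409) and not Dlx5 (adjusted p = 0.171), and limma-voom called both (adjusted p = 0.0262 and adjusted p = 0.0490). A rule chosen after the values were seen asked how many genes had this pattern. Of 9857 genes with at least 50 counts in Lateral and in a datL library, 16 (0.162%) had at most 1 count in each datM, Medial and serotonin library, and Dlx1, Dlx2 and Dlx5 were among them. Where both datL libraries had to reach 50 counts, 2 of 6923 genes (0.0289%) remained, and they were Dlx1 and Dlx5. The antisense gene Dlx1as overlaps 6.21% of the exon bases of Dlx1 and had 1 count in datL and 5 in Lateral. Dlx6os1, a noncoding gene of the Dlx5 and Dlx6 locus that shares no exon bases with Dlx6 in these tables, had 1 and 20 counts in datL and none in the other libraries.

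Tal1 (ENSMUSG00000028717.6, chr4:115056426-115071755, plus strand) is needed in mice for GABA fate in parts of the midbrain and hindbrain, and also for blood formation. It had 3.04 and 31.6 CPM in datL libraries, against 0 and 0 CPM in datM libraries. Lateral had 14.3 CPM and Medial 8.65 CPM, against 5.63 and 4.42 CPM in the serotonin libraries. Unlike the Dlx genes, Tal1 was read in Medial and serotonin, and datM was the group without a count. The pooled datL level was at least 314-fold above the datM floor, 52.0-fold without datL replicate 2, 540-fold without datL replicate 1, and 147-fold and 167-fold without a datM library. The unadjusted p was 0.0138 in edgeR (adjusted p = 0.597), with calls by DESeq2 (adjusted p = 1.40e-05) and limma-voom (adjusted p = 0.0461). Against serotonin the log2 fold change was 1.08 (SE 2.62, adjusted p of 1.00 in edgeR), which turned to -1.81 with limma-voom and -1.48 with 5 groups in the model. Lateral had 1.65 times the Medial level (95% interval 1.395 to 1.963).

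Because Tal1 also serves blood and vessel precursors, their markers stand here beside it. The 6 red blood cell genes summed to 384 and 143 CPM in datL, against 455 and 145 CPM in datM, where Tal1 had no count. Lateral had 71.2 CPM and Medial 174 CPM, against 17.1 and 27.7 CPM in serotonin libraries. Gata1 and Klf1, which define red cell precursors, were at 0 in all 8 libraries. Genes with a count numbered 3 of 6 in each dopamine library and 2 of 6 in each serotonin library. The 5 endothelial genes summed to 5.07 and 55.2 CPM in datL, against 0.550 and 105 CPM in datM, 11.1 CPM in Lateral, 18.9 CPM in Medial, and 7.53 and 9.16 CPM in serotonin, with 2 to 5 of them read per library. The part of red blood cells and of endothelium in the Tal1 values was not tested.

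Sst (ENSMUSG00000004366.3, chr16:23889581-23890844, minus strand) encodes somatostatin, a peptide released by many GABA neurons. It had 49.7 and 39.4 CPM in datL libraries, against 14.8 and 10.5 CPM in datM libraries. Lateral had 29.2 CPM and Medial 5.40 CPM, against 18.9 and 32.5 CPM in the serotonin libraries. Both datL values lay above both serotonin values, and both datM values and Medial lay below them. Lateral lay between the 2 serotonin libraries. The mean was 44.6 ± 7.25 CPM in datL and 12.7 ± 3.07 CPM in datM (SD, n = 2 each; log2 fold change 1.90 with an SE of 1.30, adjusted p of 0.685 in edgeR), and DESeq2 did not call it (adjusted p = 0.144). Lateral had 5.42 times the Medial level (95% interval 4.48 to 6.60). Dopamine and serotonin had nearly the same mean, 24.8 ± 17.5 CPM (SD, n = 6) and 25.7 ± 9.60 CPM (SD, n = 2), with a log2 fold change of 0.13 (SE 1.14, adjusted p of 1.00 in edgeR). Per kilobase Sst was the most abundant of the 9 genes in datL, at 83.0 and 65.9 CPM per kilobase. That also held in both serotonin libraries (31.6 and 54.2 CPM per kilobase) and in datM replicate 1 (24.8 CPM per kilobase). Its exons span 599 bases.

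Read over the 9 genes, edgeR gave the same sign throughout for datL over datM, which Lateral over Medial did not repeat for every gene. All 9 had a positive edgeR log2 fold change of datL over datM, with a median of 8.09, or 6.49 when the lower bound stands in for the 4 genes without a datM count, where the median over the 15177 genes tested was 0. Dlx1, Dlx2, Dlx5, Dlx6 and Tal1 had at most 1 count in datM and passed the filter on low counts through other libraries, so their sign was set by that and the count of 9 supports nothing; of the other 4, Slc32a1 turned sign with limma-voom and without datL replicate 1. Both datL libraries lay above both datM libraries for 6 of the 9 (Gad1, Gad2, Dlx1, Dlx5, Tal1 and Sst), as they did for 13.1% of 13255 genes. They lay below for none, where the share was 15.2%. This background asked for at least 10 counts over the datL and datM libraries. Dlx1, Dlx2, Dlx5, Dlx6 and Tal1 met it only through datL and could not lie below, so these counts also support nothing for them. At an adjusted p under 0.05, edgeR called 0 of the 9 and 0 of all genes tested (0%), with an unadjusted p under 0.05 for 4 of the 9 and for 1050 of all. DESeq2 called 3 of the 8 and 13.2% of all the genes to which it gave an adjusted p, and limma-voom called 3 of the 9 and 1.60%. Between Lateral and Medial, 5 of the 8 genes with at least 10 counts in either library were over 2-fold higher in Lateral (Gad1, Dlx1, Dlx2, Dlx5 and Sst), as were 31.5% of 14016 genes. None was over 2-fold higher in Medial, as were 23.1%. Dlx1, Dlx2 and Dlx5 had 0 counts in Medial and met the minimum through Lateral alone. Their direction was thus set by the filter, and the count of 5 supports nothing. Slc32a1 ran the other way, at 0.541 of Medial in Lateral, and Gad2 was nearly equal. For Dlx1, Dlx5, Gad2 and Sst, all 3 datL and Lateral libraries lay above all 3 datM and Medial libraries. That held for 3.41% of 15119 genes, and the reverse for 3.64% and for none of the 9. The Dlx genes, with at most 1 count in each datM and Medial library, could not show the reverse.

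Between dopamine and serotonin, 8 of the 9 genes passed edgeR's filter on low counts, Dlx6 being left out, and all 8 log2 fold changes were positive, with a median of 1.69 against 0.26 over the 13806 genes tested. The filter keeps genes read in as few as 2 libraries, so the Dlx genes passed through the libraries where they were high. EdgeR called 0 of the 8 and 0 of all genes (0%), with an unadjusted p under 0.05 for 1 of the 8 and for 648 of all. DESeq2 called 0 of the 7 to which it gave an adjusted p and 1.47% of genes, and limma-voom 0 of 8 and 0.101%. Within lane 8, where the 4 Dlx genes did not pass the filter, edgeR called 0 of 5 members and 0.0224% of 13400 genes, limma-voom called 0 of 5 and 0.00746%, and DESeq2 called Gad1 and Gad2 and 7.25% of genes. Lateral and Medial both lay above both serotonin libraries for Gad1, Gad2, Slc32a1 and Tal1, 4 of 8 genes, and for 23.2% of 15324 genes. In lane 8 the neuron type, the brain region (midbrain or hindbrain) and the E18 mark cannot be told apart.

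**Figure D3:**
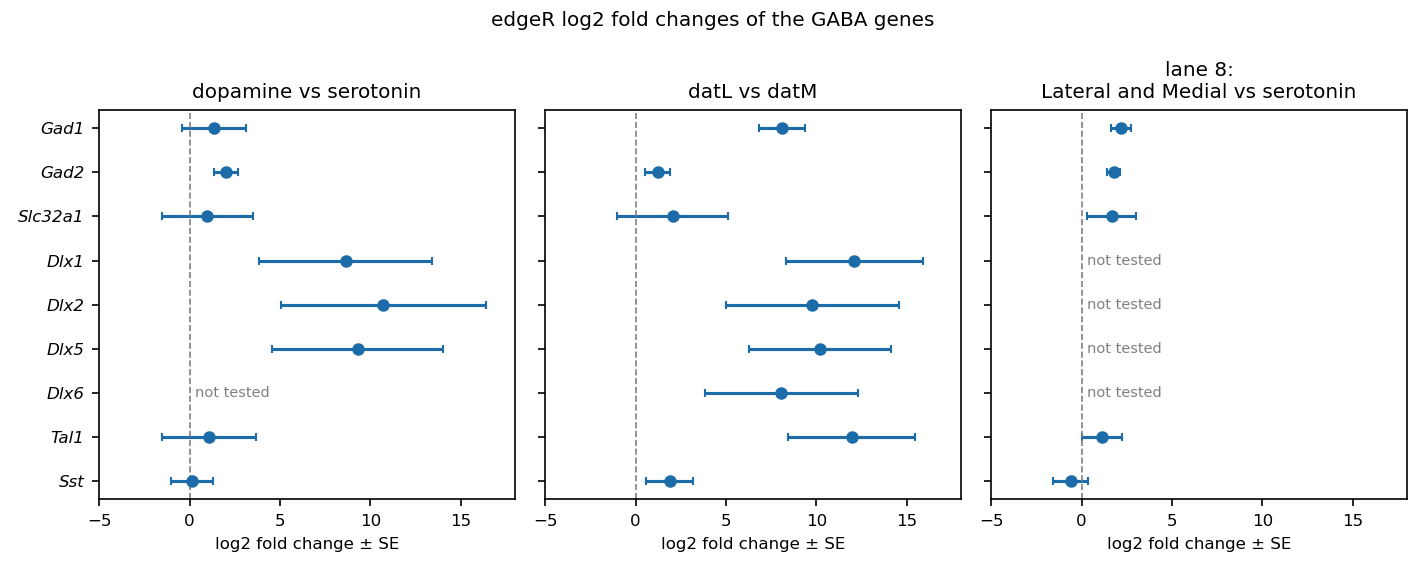
Log2 fold changes with standard errors from edgeR for 3 comparisons: the 6 dopamine libraries over the 2 serotonin libraries, datL over datM (n = 2 each), and Lateral and Medial over serotonin in lane 8 (n = 2 each). Fitted values of genes with no count in 1 group depend on the prior count and have wide errors; Gad1 in datL over datM stands at 8.09 with an SE of 1.28.

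The rest of the GABA pathway was followed through lists chosen with earlier results of these data known. Of 11 genes of GABA breakdown, uptake and precursor supply, edgeR called 0 in any of the 3 comparisons. For datL over datM, 6 of the 10 tested were positive and 3 negative, with a median log2 fold change of 0.20. Slc6a11, a GABA transporter of astrocytes, had 75.3 CPM in Lateral and 88.8 CPM in Medial, against 15.3 and 21.1 CPM in serotonin (log2 fold change 2.09 with an SE of 0.44, adjusted p of 0.273 in edgeR), and at most 3.17 CPM in any datL or datM library. In lane 8 all 9 tested genes of this list were positive (median 1.13, where all genes had 0.03), 3 of them at an unadjusted p under 0.05 in edgeR, as were 1849 of the 13400 genes tested. In the same comparison all 5 tested genes of astrocytes and radial glia were positive (median 2.48), each at an unadjusted p under 0.05 in edgeR; their part in the values of this list was not tested.

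Of 13 midbrain and hindbrain GABA lineage factors besides Tal1, edgeR called 0, and 10 were tested in each comparison. Tal2, Helt and Ptf1a, which act in GABA lineages of the mouse midbrain or hindbrain, were at 0 in all 8 libraries. Gata3, a partner of Tal1 that serotonin neurons also use, had 422 and 68.8 CPM in datL, against 37.0 and 11.8 CPM in datM. Lateral had 210 CPM and Medial 55.9 CPM, against 601 and 602 CPM in serotonin. Its log2 fold change was 3.42 for datL over datM (SE 0.99, adjusted p of 0.597 in edgeR) and -1.99 for dopamine over serotonin (SE 0.94, adjusted p of 1.00 in edgeR). Gata2 had 0.352 and 0 CPM in datL and 0 in both datM libraries. It had 13.7 CPM in Lateral and 24.2 CPM in Medial, against 122 and 159 CPM in serotonin. So Gata3 was lower in Medial than in Lateral and lower in datM than in datL, whereas Gata2 was nearly missing from all 4 October libraries.

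Of 15 forebrain GABA lineage factors besides the 4 Dlx members, edgeR called 0; for datL over datM, 8 of 9 tested were positive, with a median log2 fold change of 2.97. Sp9, a zinc finger factor of striatal precursors, had 38.8 and 0.343 CPM in datL, against 0.0367 and 0 CPM in datM. Six3 had 19.8 and 13.1 CPM in datL, against 0.0734 and 0.790 CPM in datM, and 27.4 CPM in Lateral and 20.5 CPM in Medial, against 0.339 and 0.377 CPM in serotonin. Gsx2, Lhx8 and Dlx4, all factors of forebrain precursors, were at 0 in all 8 libraries. With 5 to 11 of its 15 genes read per library, the list summed to 348 and 308 CPM in datL, against 89.5 and 39.6 CPM in datM, and to 246 CPM in Lateral, against 75.9 CPM in Medial and 85.6 and 188 CPM in serotonin.

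**Figure D4:**
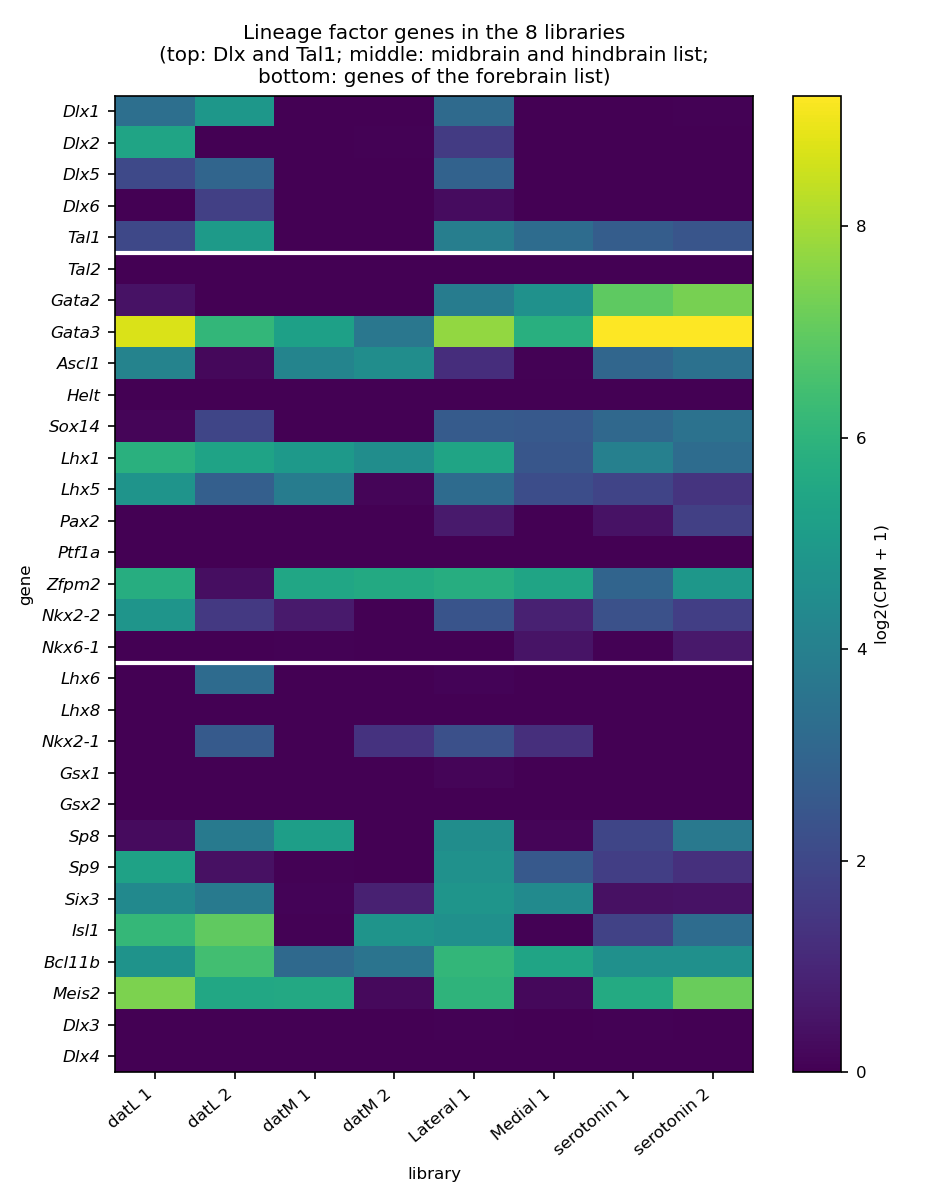
Level of Dlx genes and Tal1 (top), the midbrain and hindbrain list (middle) and genes of the forebrain list (bottom) in each library, as log2(CPM + 1), with darker cells lower. Dlx1 and Dlx5 are light in datL and Lateral columns, Tal1 is dark in both datM columns, and Gsx2, Lhx8 and Dlx4 are dark throughout.

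Genes of mature striatal neurons and of interneuron subtypes were of mixed sign between datL and datM. Of 10 striatal genes tested for datL over datM, 3 were positive and 5 negative, and edgeR called 0. Drd1, a dopamine receptor of striatal neurons, had 0 and 38.7 CPM in datL and 0 in both datM libraries. Of 10 interneuron peptides and calcium-binding proteins besides Sst, 8 were tested, 3 were positive and 3 negative, and the median log2 fold change was 0. Pvalb stood at 9.34 (SE 4.45, adjusted p of 0.597 in edgeR) and Calb1 at 3.65 (SE 2.55, adjusted p of 0.697 in edgeR). Calb2 stood at -0.79 (SE 0.47, adjusted p of 0.619 in edgeR). Calb2, a calcium-binding protein, had 272 and 210 CPM in datL, against 378 and 509 CPM in datM, and the 6 dopamine libraries lay at 210 to 509 CPM, against 74.5 and 105 CPM in serotonin (log2 fold change 2.14 with an SE of 0.48, adjusted p of 0.328 in edgeR). Vip, which marks another interneuron class, had no count in any dopamine library.

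Markers of other cells stand here beside the L and M labels. The 9 dopamine neuron genes summed to 417 and 876 CPM in datL, against 1895 and 1255 CPM in datM, with 7 or 8 of 9 read in each datL and 8 of 9 in each datM library. They summed to 2075 CPM in Lateral, against 1542 CPM in Medial, so the order was the reverse of that between datL and datM. In the serotonin libraries the same genes summed to 1268 and 1077 CPM, above both datL libraries. Of the 9, 4 had a negative edgeR log2 fold change of dopamine over serotonin, Slc18a2 (-2.12) and Ddc (-1.88) among them. The sum therefore does not mark dopamine neurons alone. Slc17a6, the glutamate transporter that makes up almost all of the 3-gene glutamate list there, had 6.79 and 195 CPM in datL, against 114 and 285 CPM in datM, and 76.2 CPM in Lateral, against 320 CPM in Medial. The 6 genes of astrocytes and radial glia summed to 3202 and 1689 CPM in datL, against 3246 and 2022 CPM in datM, 1797 CPM in Lateral, 2685 CPM in Medial, and 589 and 745 CPM in serotonin, with 4 to 6 read in each library. The 5 oligodendrocyte lineage genes, of which 4 or 5 were read in each library, summed to 36.9 and 171 CPM in datL, against 28.4 and 76.6 CPM in datM, and to 126 CPM in Lateral, 263 CPM in Medial, and 20.9 and 28.9 CPM in serotonin. The 5 serotonin genes, Slc6a4 among them, summed to 37.1 and 0 CPM in datL, against 0.0734 and 0.166 CPM in datM. The 37.1 CPM came from 1 gene, Gchfr (log2 fold change of datL over datM 8.30 with an SE of 2.67, adjusted p of 0.597 in edgeR). The list summed to 26.9 CPM in Lateral and 88.0 CPM in Medial, against 6107 and 5089 CPM in serotonin. From 0 to 2 of the 5 were read in October and 5 of 5 in lane 8 libraries. Lmx1b stands in both the serotonin and the dopamine list. Of the 4 microglia genes, at most 2 were read in any library, with sums of 0 to 13.5 CPM, and Csf1r was at 0 in all. The part of these cells in the GABA gene values was not tested.

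The genes most like each of the 3 GABA synthesis and transport genes were ranked over the 8 libraries among 10090 genes, by the mean absolute difference of centred log2(CPM + 1) profiles. For Gad1 they were Sacm1l (0.815), Trpv2 (0.866), Tmem43 (0.923), Mpp3 (0.932) and Flcn (0.942). All 5 stood at or under 1.25 CPM in both datM libraries. For Gad2 they were Spats2l (0.253), Cse1l (0.306), Rian (0.354), Abl2 (0.367) and Lhfpl2 (0.372). For Slc32a1 they were Mepce (0.214), Nt5dc2 (0.296), Dbn1 (0.301), Polk (0.315) and Dnm1 (0.329). The other decarboxylase was far down both lists: Gad2 ranked 3846 for Gad1 and Gad1 ranked 9916 for Gad2, at a difference of 2.46. Among the 9 genes, Tal1 was the most like Gad1, at rank 61 (1.32).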

How the data were processed

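Ribosome-bound RNA of 8 libraries was analysed from the raw read counts per gene deposited by the authors, 1 table per library. The submitters' processing notes name STAR and the build mm10. Counting used featureCounts 1.4.3-p1, the gencode.vM2 annotation and the unstranded setting, per the file headers. Long-distance PCR and 10 further cycles preceded sequencing, per the labels' protocols, so counts are not independent molecules, and intervals and floors cover counting error only. Symbols were attached by identifier to 37607 of 38924 genes. The members, gene lists and tests were chosen with earlier results of these data known.

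The 3 comparisons were tested across all genes with edgeR 4.0.16 (quasi-likelihood, two-sided, TMM factors, default filter, Benjamini-Hochberg adjusted p under 0.05) in R 4.3.3: 6 dopamine against 2 serotonin libraries, datL against datM in a fit of all 5 groups, and Lateral with Medial against serotonin. Standard errors were derived from the fold change and the test statistic. Lateral and Medial, with 1 library each, had no test. The scripts were checked on simulated data. Alternatives were RLE factors, DESeq2 1.42.0, voom of limma 3.58.1, other filters, a replicate block, other groupings and leaving out each library. Named beside the 9 genes were up to 3 genes of a list by smallest p in a comparison and the 5 genes most like Gad1, Gad2 and Slc32a1 with a mean of at least 5 CPM. Some genes of the lists are not reported here by name, although list counts and sums hold them. Genes at 0, Vip and the antisense genes were named after their values were seen. Folds against a group at 0 used a floor of 3 counts over the group, on pooled counts, with no error allowed in the higher group. Exact 95% intervals are conditional on the summed counts.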

Additional observations from a re-analysis of the deposited data

Results flagged for a closer look

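Over the 6 dopamine libraries, the highest library stood far from the rest for 3 genes: the gap to the next value was 0.671 of the whole range for Dlx1 (datL replicate 2), 0.95 for Dlx2 (datL replicate 1) and 0.897 for Dlx6 (datL replicate 2), against a critical value of 0.625. Chance flags about 1 in 20 groups, and these genes are at or near 0 in the datM and Medial libraries. For 3 other genes both datM libraries lay below both serotonin libraries while Lateral and Medial lay above them. The log2 ratio of mean CPM + 1 in datM over Lateral and Medial was -7.85 for Gad1, -2.1 for Slc32a1 and -3.64 for Tal1. For Sst, datL lay above and datM below both serotonin libraries, with a log2 ratio of datM over datL of -1.74. These differences between groups were not tested, and in the first 3 genes the groups come from different runs, which cannot be told apart from the labels.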

How the results depend on the processing

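Of 307 values of single genes under alternatives, 279 kept their sign and side of the threshold, 13 passed it only under the alternative and 15 turned sign; of 22 gene results, 15 never turned. Dopamine over serotonin turned with limma-voom for Gad1 (-0.98), Slc32a1 (-0.72), Tal1 (-1.81) and Sst (-0.25), and with 5 groups in the model for Gad1 (-0.27), Tal1 (-1.48) and Sst (-0.53); leaving out a library gave Sst -0.28 to 0.50. The median over all genes was 0.26 in edgeR and -0.64 in limma-voom. For datL over datM, limma-voom gave -0.49 for Slc32a1, and leaving out a library gave -7.85 to 4.31 for Slc32a1 and -2.48 to 12.25 for Dlx2. With Lateral joined to datL and Medial to datM, Gad1 was 2.38 and Tal1 2.76, against 8.09 and 11.96 for datL over datM alone, and with a run term as well Gad1 was 6.53 and Tal1 9.06. In lane 8, Sst ran from -2.38 to 0.18 when a library was left out. The cause was not tested.

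Calls over all genes for dopamine over serotonin were 203 with DESeq2, 14 with limma-voom, 3 with a filter of 5 CPM, 2 with 5 groups, and 0 to 1 without a library. For datL over datM they were 1699 with DESeq2, 243 with limma-voom, 1 with Lateral joined to datL and Medial to datM, and 0 to 6 without a library; members called were 3 with DESeq2, 3 with limma-voom and 0 to 1 without a library. In lane 8 they were 942 with DESeq2, 1 with limma-voom, 7 without a filter, 5 with a filter of 5 CPM and 13 to 2453 without a library, and members called were 2 with DESeq2 and 0 to 2 without a library. Fits without Lateral or without Medial leave 1 dopamine library, assumed to vary like serotonin. In them the edgeR log2 fold change of Gad1 was 1.24 without Lateral and 2.74 without Medial, and that of Gad2 was 1.68 without Lateral. Calls in these fits rest on that assumption and are not read as results about either gene. Lateral over Medial was 2.93 for Gad1 and 1.18 for Gad2 with TMM-adjusted sizes.

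Libraries with the same replicate number showed little sign of pairing (correlation of deviations 0.0986 for datL with datM, 0.015 for datL with serotonin and -0.0028 for datM with serotonin). Pairing by the other numbers in the library titles was not checked. With the replicate block edgeR called 0 genes and 0 members in both comparisons, 762 and 573 genes had an unadjusted p under 0.05, and Slc32a1 turned to -2.53 for dopamine over serotonin. With 2 libraries a group, counts of 0 in 1 October library limit what the datL and datM comparison can show for genes as low as Dlx2, Dlx6 and Slc32a1.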
